A study of Mus musculus with 6 samples.

Results

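The 33 genes described here carry out fat absorption in the enterocyte, from uptake at the brush border to export of the chylomicron. They were chosen by name as the rows of the deposited count table that encode uptake and binding proteins (6 genes), sterol efflux pumps (3), enzymes of acyl activation and re-esterification (7), lipid droplet proteins and lipases (5), apolipoproteins and assembly factors (9), export factors of the endoplasmic reticulum (2) and 1 transcription factor. All 33 had a row among the 54446 genes of the table, and all 33 passed the filter on low counts, which left 15068 genes. Together they held between 4.01% and 5.00% of all counts in the controls and between 4.61% and 4.89% in the knockouts.

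The series set 3 mice with floxed Prkci alleles (Prkci flox/flox, control) against 3 mice with the same alleles and Villin-CRE, a recombinase driven by a promoter of the intestinal epithelium (knockout). Both groups thus carried the floxed alleles and only the knockouts carried Cre, so that a Cre-only effect cannot be told apart from loss of the kinase. The product of Prkci is an atypical protein kinase C, iota/lambda, that acts in cell polarity. The mice were 3 to 4 months old and were housed together, their strain was not given in the sources used here, and each library came from 1 mouse. The tissue was epithelium released with 30 mM EDTA and 5 mM DTT, from jejunum by the sample titles and from jejunum and ileum by the series text.

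Dietary triglyceride is split in the gut lumen, and the fatty acids and monoglycerides enter enterocytes, where they are joined again to triglyceride at the endoplasmic reticulum. Microsomal triglyceride transfer protein loads this fat onto apolipoprotein B, and the particle leaves in COPII-coated carriers as a chylomicron, while excess fat is held for a time in cytosolic lipid droplets. The pathway is most active in the villus of the proximal small intestine, and loss of its main assembly genes causes fat malabsorption.

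Upstream sequences of 4 of the genes are shown because HNF4 and CDX factors are known regulators of intestinal fat genes and because Hnf4g, one of them, did not overlap between the genotypes (values further on). The sequences are from RefSeq (GRCm38.p6, plus strand, 5′ to 3′) and run up to the base before the gene start of GENCODE M21. Capitals mark matches to CAAAGNNCA, a core bound by HNF4 factors, or TTTATNG, a core bound by CDX factors, on either strand.
Fabp1, chr6:71199629-71199826: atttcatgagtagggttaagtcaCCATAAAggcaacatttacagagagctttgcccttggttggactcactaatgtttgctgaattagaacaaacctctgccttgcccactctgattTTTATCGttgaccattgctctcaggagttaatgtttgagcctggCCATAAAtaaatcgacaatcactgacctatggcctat
Fabp2, chr3:122894822-122895071: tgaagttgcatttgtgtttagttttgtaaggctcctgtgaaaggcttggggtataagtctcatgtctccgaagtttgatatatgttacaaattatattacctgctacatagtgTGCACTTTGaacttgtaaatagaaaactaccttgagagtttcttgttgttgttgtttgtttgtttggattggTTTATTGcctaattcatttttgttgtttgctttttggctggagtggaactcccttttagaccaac
Apob, chr12:7977427-7977647: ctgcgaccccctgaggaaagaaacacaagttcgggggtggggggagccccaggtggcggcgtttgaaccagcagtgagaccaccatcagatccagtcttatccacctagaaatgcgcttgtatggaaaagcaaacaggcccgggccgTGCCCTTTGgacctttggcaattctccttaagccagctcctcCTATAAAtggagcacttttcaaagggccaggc
Apoa4, chr9:46240594-46240695: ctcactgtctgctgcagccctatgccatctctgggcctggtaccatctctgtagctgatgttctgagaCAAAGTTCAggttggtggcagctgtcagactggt
In the 250 bases before the RefSeq start, CAAAGNNCA lay in 5 of the 30 promoters of the 26 genes with an entry (16.7%; Fabp2, Apoa4, Creb3l3, Apob and Abcg5), and in 5.49% of all 32851 promoters of that length. TTTATNG lay in 9 of the 30 and in 9.81% of all. In Apob the capitals of TTTATNG overlap a TATAAA box. A match describes letters and not a bound site. The 5 genes with CAAAGNNCA had log2 fold changes of 0.24, 0.24, 0.03, 0.01 and 0.01, in the order named above. Fabp1, Cd36 and Plin2, which were lower without overlap, had no match to it in this window. The motifs were chosen after values were seen, and a match or its lack in this window cannot decide whether Hnf4g acts on a gene. Whether it acts on any of these genes was not tested.

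Total counts ran from 18972906 to 26687856 per library. Levels are given as CPM, counts divided by the scaled library total and multiplied by 1000000, and values per library follow the replicate order 1, 2, 3. Prkci, the targeted gene, had 44.6, 46.9 and 44.0 CPM in the controls and 21.5, 14.6 and 21.4 CPM in the knockouts, so that every knockout lay below every control. Its log2 fold change was −1.24 (SE 0.17, edgeR adjusted p = 0.0719), above the threshold of 0.05, while DESeq2 gave an adjusted p of 9.92e-08. Knockout replicate 1 stood apart from the other two knockouts, with a chi-square per gene of 157 and 105 against them, where replicates 2 and 3 gave 49.2 and the controls 23.8 to 48.1. By Xist and Ddx3y counts, 1 control and 2 knockouts (replicates 2 and 3) were female, which went against the series text for 3 of the 6 libraries. Whether that text or the sample labels are in error was not settled, though the order of Prkci levels was that of the genotype labels. Results are therefore given with and without knockout replicate 1, and without it the knockouts left were both female. Epithelial identity was clear in every library, with 15 genes of epithelium and brush border summing to between 31572 and 50871 CPM. That list had a mean level 0.24 higher in the knockouts on the log2 scale.

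No gene of the 33 passed the test. That test also left the targeted gene Prkci above the threshold (edgeR adjusted p = 0.0719), so a lack of calls does not show a lack of change. For 28 of the 33 the 95% interval of the log2 fold change lay within −1 and 1, as it did for 63.8% of all genes. The exceptions were Cd36, Scarb1, Abca1, Mttp and Apoc2. Intervals within that range still leave room for change, as for Dgat2 with 0.15 to 0.89. By edgeR's quasi-likelihood test, 0 rose (0.0531% of all genes tested) and 0 fell (0.00664%) at an adjusted p below 0.05, where 0.0597% of all genes were called in either direction. At an unadjusted p below 0.05, 3 were higher (Scarb1, Dgat2 and Surf4, 9.32% of all genes) and 3 lower (Cd36, Fabp1 and Plin2, 7.09%), 6 in all (16.4%).

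Without overlap between the genotypes, 3 were higher (Dgat2, Plin3 and Apoa1, 10.0% of all genes) and 3 lower (Cd36, Fabp1 and Plin2, 11.7%), 6 in all (21.8%). An absolute log2 fold change of at least 0.5 was reached by 6 genes (23.5%). DESeq2 called 1 gene higher (Scarb1, 3.60% of all genes) and 0 lower (1.95%), with 5.55% of all genes called in either direction. Limma-voom called 0 higher (0.0265%) and 0 lower (0.00664%), with 0.0332% of all genes called. The shares among the 33 were thus near those of all genes. The median log2 fold change was 0.13 over the 33 genes and 0.01 over all genes tested, and 26 of the 33 were positive (50.7% of all genes). With library totals in place of trimmed-mean scaling the median of the 33 moved to 0.03 and that of all genes to −0.10, and 7 of these 26 genes turned negative. The median of the 33 also moved to 0.26 without control replicate 1, to 0.07 without control replicate 3 and to 0.19 without knockout replicate 3. In bulk tissue, fewer cells of a type and less RNA per cell cannot be told apart.

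**Figure D1:**
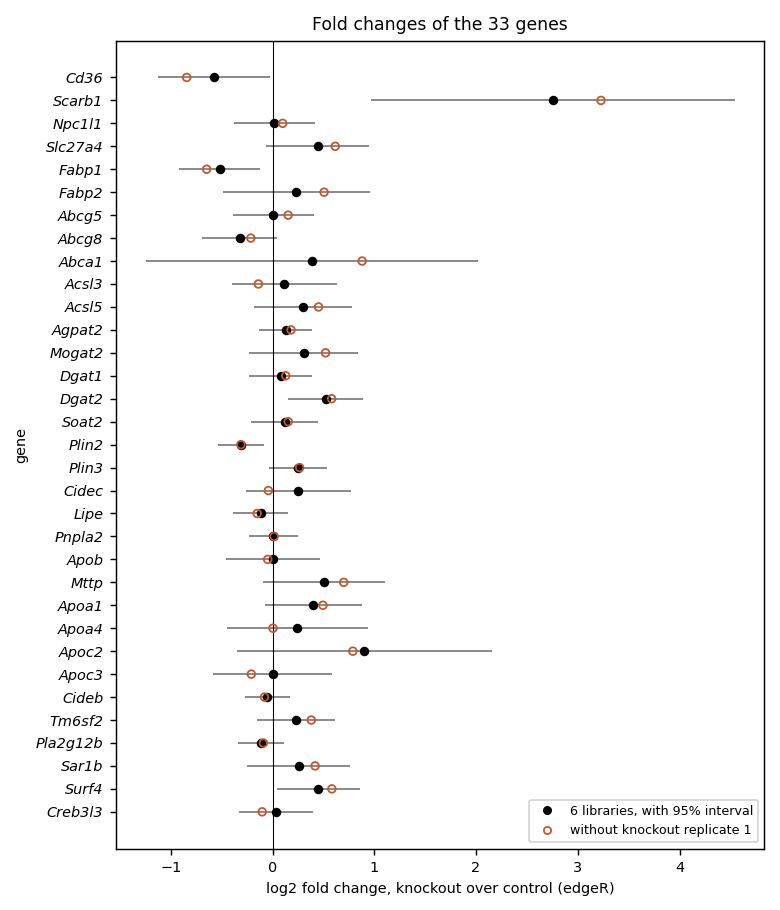
Log2 fold change of knockout over control (x axis, edgeR) for each of the 33 genes (y axis), with black points and bars for the estimate and 95% interval from 6 libraries and open circles for the estimate without knockout replicate 1. Most intervals cross 0, and Scarb1 lies far to the right at 2.75.

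As mean log2 CPM minus the control mean, the level of the 33 genes was 0.17, −0.08 and −0.09 in the controls and 0.01, 0.28 and 0.24 in the knockouts. Knockout replicates 2 and 3 lay above all controls and replicate 1 lay among them. The mean difference of 0.18 compares with an SD of 0.15 over the controls and 0.14 over the knockouts. Scarb1 weighed on this mean, at 0.76, 3.57 and 3.21 in the knockouts. With the median over the 33 genes in place of their mean, the difference was 0.08. Set against the epithelium and brush border list, the mean difference turned to −0.06, so the direction of the mean depended on that reference. In knockout replicate 2, 12 of the 33 genes lay at least 0.5 above the control mean (36.4%, against 19.6% of all genes), while in replicates 1 and 3 it was 5 (15.2%, against 14.2%) and 4 (12.1%, against 16.1%).

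**Figure D2:**
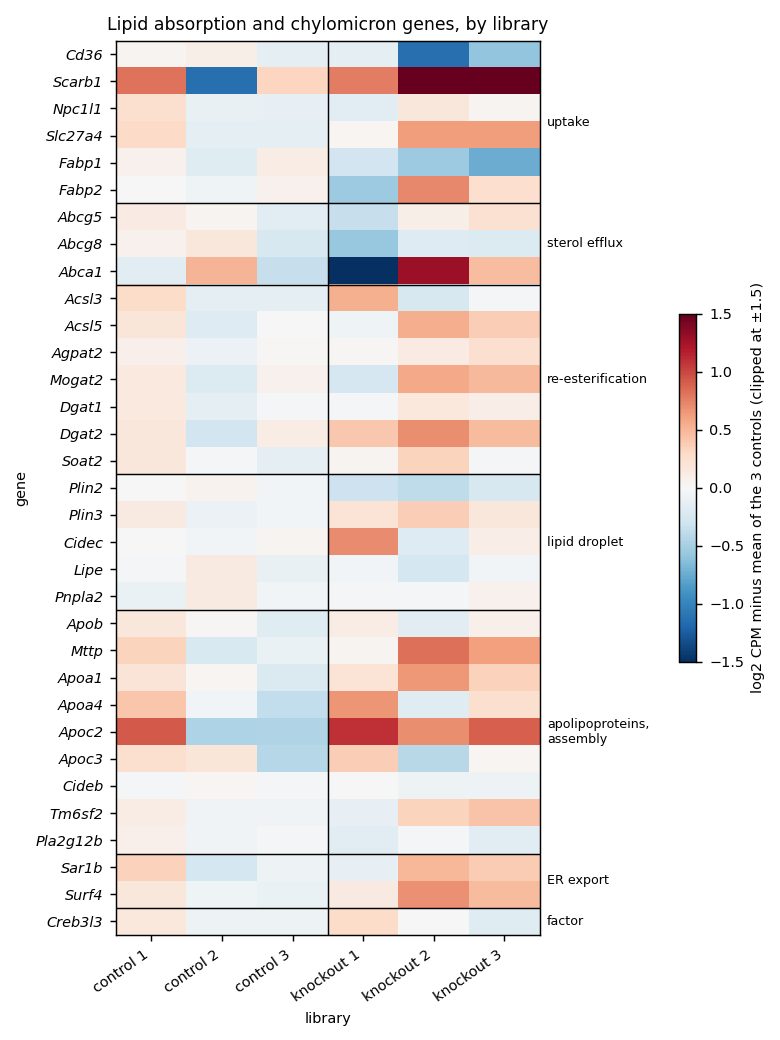
Log2 CPM minus the mean of the 3 controls (colour, clipped at 1.5 in either direction) for each gene (rows, by role) in each library (columns). Slc27a4, Mttp and Surf4 are red in knockout replicates 2 and 3 and pale in replicate 1, Scarb1 is red in all 3 but also in control replicate 1, and Plin2 is blue in all 3 knockouts.

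**Figure D3:**
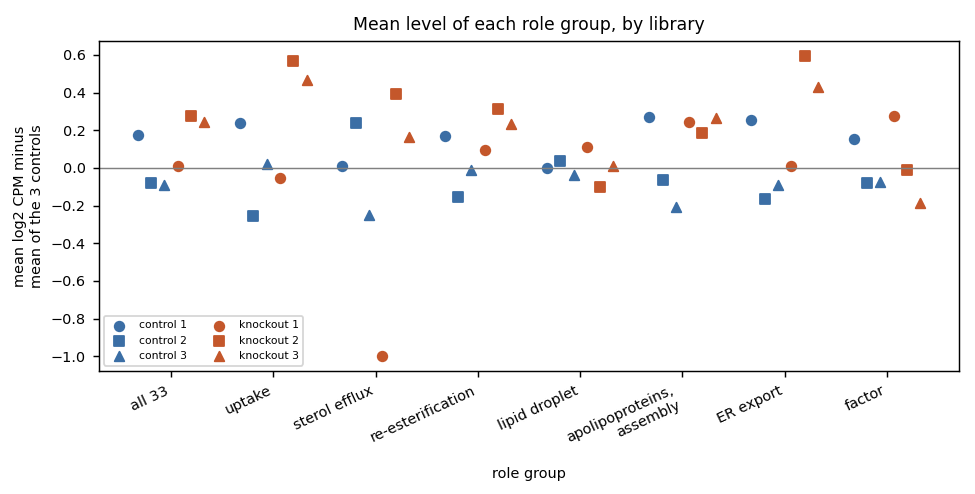
Mean log2 CPM minus the mean of the 3 controls (y axis) for all 33 genes and for each role group (x axis), with 1 point per library. Knockout replicate 1 lies among the controls for most groups and at −0.999 for sterol efflux.

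When knockout replicate 1 was left out, edgeR called 6 of the 33 genes higher (10.0% of all genes) and 2 lower (7.44%), so that 24.2% of these genes were called where 17.5% of all genes were. At an unadjusted p it was 12 higher (17.9%) and 3 lower (15.8%), 15 in all (33.8%). The 6 were Scarb1, Slc27a4, Mogat2, Dgat2, Tm6sf2 and Surf4, and the 2 were Cd36 and Fabp1. That library was singled out because it stood apart in these same counts, and leaving it out narrows the spread among the knockouts by selection. Over all genes, edgeR calls went from 8 higher and 1 lower with 6 libraries to 1549 and 1151 without it. Adjusted p values without knockout replicate 1 are thus a description here and below. Both knockouts left in that comparison were female, against 1 of 3 controls, so genotype and sex cannot be told apart there. With sex by Xist as a covariate in all 6 libraries, no gene of the 33 passed.

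Among the 6 uptake genes, 2 were lower without overlap (11.7% of all genes), 1 was much higher in 2 of 3 knockouts, and the rest overlapped. Cd36, a scavenger receptor and fatty acid translocase of the proximal gut (ENSMUSG00000002944.15, chromosome 5, 17781690 to 17888801), stood at 114, 117 and 101 CPM in the controls and at 99.96, 50.2 and 72.9 CPM in the knockouts. The highest knockout lay just below the lowest control, and the other two lay far below. The log2 fold change was −0.57 (SE 0.23, edgeR adjusted p = 0.288), and −0.84 (adjusted p = 0.0154) without knockout replicate 1.

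Fabp1, the liver-type fatty acid binding protein (ENSMUSG00000054422.7, chromosome 6, 71199827 to 71205023), had 1589, 1348 and 1649 CPM in the controls and 1247, 1042 and 911 CPM in the knockouts. Every knockout lay below every control. The log2 fold change was −0.52 (SE 0.17, edgeR adjusted p = 0.213), with a DESeq2 adjusted p of 0.0523, and −0.65 (edgeR adjusted p = 0.0244) without knockout replicate 1.

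Fabp2, the intestinal-type binding protein and the most abundant uptake gene by CPM, did not share that pattern. It had 3989, 3829 and 4184 CPM in the controls and 2749, 6610 and 4767 CPM in the knockouts, which put knockout replicate 1 below and replicates 2 and 3 above all controls. Its log2 fold change was 0.24 (SE 0.31, edgeR adjusted p = 0.720). As a ratio of counts, which needs no scaling, Fabp1 to Fabp2 was 0.398, 0.352 and 0.394 in the controls and 0.454, 0.158 and 0.191 in the knockouts. The ratio was thus low in knockout replicates 2 and 3 and above the controls in replicate 1.

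Scarb1, the HDL receptor SR-BI, which also takes part in sterol uptake (ENSMUSG00000037936.15, chromosome 5, 125277087 to 125341094), was the gene of the 33 with the largest fold change. It had 126, 33 and 94 counts in the controls and 106, 874 and 740 in the knockouts, or 5.54, 1.375 and 3.93 CPM and 5.36, 38.1 and 29.6 CPM. Knockout replicate 1 lay within the controls and the other two lay far above. The log2 fold change was 2.75 (95% interval 0.97 to 4.54, edgeR adjusted p = 0.174), DESeq2 gave an adjusted p of 0.0435, and without knockout replicate 1 edgeR gave 3.23 (adjusted p = 0.00444). With sex by Xist as a covariate the log2 fold change was 1.90.

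Slc27a4, the fatty acid transport protein FATP4, had 1112.5, 832 and 827 CPM in the controls and 933, 1418 and 1417 CPM in the knockouts. Replicates 2 and 3 of the knockouts were above all controls. Its log2 fold change was 0.44 (SE 0.22, edgeR adjusted p = 0.357), and 0.62 (adjusted p = 0.0397) without knockout replicate 1. Npc1l1, the cholesterol importer that ezetimibe blocks, was at 1789 ± 264 CPM in controls and 1810 ± 204 CPM in knockouts (SD, n = 3 each). Its 95% interval of the fold change, 0.767 to 1.33, leaves room for a modest change in either direction.

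**Figure D4:**
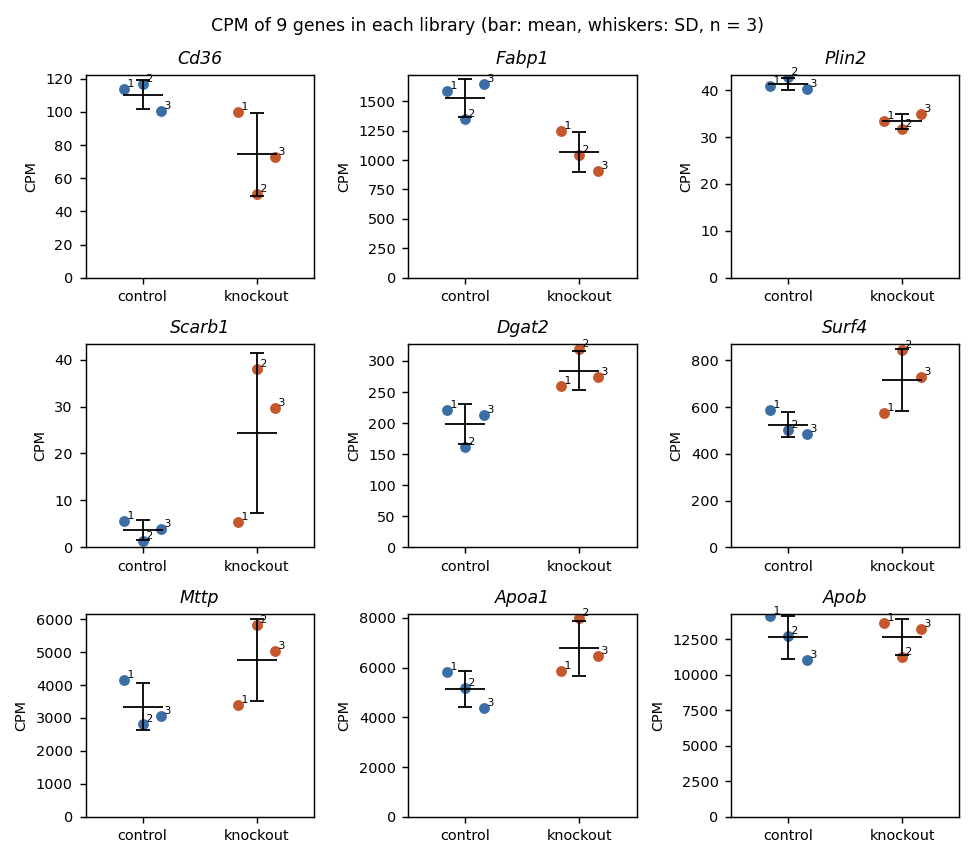
CPM (y axis, from 0) of 9 genes in each library, with control points in blue and knockout points in orange, numbered by replicate, and bars for the mean with SD (n = 3). Cd36, Fabp1 and Plin2 are lower and Dgat2 and Apoa1 higher in every knockout than in any control, whereas Scarb1, Surf4 and Mttp are high in knockout replicates 2 and 3 only and Apob overlaps.

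The sterol efflux genes showed no common direction. Abcg5 and Abcg8 encode the 2 subunits of the pump that returns cholesterol and plant sterols to the lumen, and their genes lie head to head and overlap on chromosome 17 (84658234 to 84683011 and 84676302 to 84700333). Abcg5 had 250, 236 and 204 CPM in the controls and 181, 243 and 269 CPM in the knockouts, a log2 fold change of 0.01 (SE 0.17, edgeR adjusted p = 0.990). Abcg8 was at 233 ± 32.9 and 186 ± 25.9 CPM (SD, n = 3 each), with a log2 fold change of −0.32 (SE 0.16, edgeR adjusted p = 0.353). The ratio of Abcg5 to Abcg8 counts was 1.03, 0.909 and 1.04 in the controls and 1.16, 1.21 and 1.34 in the knockouts, without overlap. This pair of genes overlaps on opposite strands, and reads of such genes cannot be told apart where counting ignores strand, a setting that was not given in the sources used here.

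Abca1, which passes cholesterol to apolipoprotein A-I at the basolateral side, spread most among the knockouts. It had 39.9, 63.8 and 35.2 CPM in the controls and 10.5, 109 and 61.9 CPM in the knockouts. Knockout replicate 1 was the lowest of all 6 libraries and replicate 2 the highest, and the 95% interval of the log2 fold change ran from −1.25 to 2.02.

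All 7 genes of acyl activation and re-esterification had positive fold changes, between 0.08 and 0.52 on the log2 scale, and 0 passed the test. Of the 7, Dgat1 turned to −0.03 with library totals and Acsl3 to −0.14 without knockout replicate 1. Dgat2, one of the 2 acyltransferases that finish triglyceride (ENSMUSG00000030747.5, chromosome 7, 99153658 to 99182719), had 221, 161 and 213 CPM in the controls and 260, 319 and 274 CPM in the knockouts. Every knockout lay above every control. Its log2 fold change was 0.52 (SE 0.16, edgeR adjusted p = 0.194), and 0.58 (adjusted p = 0.0416) without knockout replicate 1. Dgat1, the other acyltransferase and the main one of the gut, overlapped at 656 ± 65.5 and 694 ± 43.8 CPM (SD, n = 3 each). The ratio of Dgat2 to Dgat1 counts was 0.304, 0.270 and 0.330 in the controls and 0.402, 0.436 and 0.389 in the knockouts. It did not overlap, as Dgat2 alone already did not.

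Mogat2, which joins monoglyceride and fatty acid in the first step of the gut's own route to triglyceride, had 385, 301 and 363 CPM in the controls and 292, 518 and 487 CPM in the knockouts. Replicate 1 lay below and replicates 2 and 3 above all controls. Its log2 fold change was 0.30 (SE 0.23, edgeR adjusted p = 0.528), and 0.52 (adjusted p = 0.0349) without knockout replicate 1. Acsl5, the acyl-CoA synthetase of highest CPM in this group, had 2354, 1812 and 2088 CPM in the controls and 1984, 3032 and 2677 CPM in the knockouts, a log2 fold change of 0.30 (SE 0.20, edgeR adjusted p = 0.487). The same 2 knockouts were again above the controls. Acsl3, an acyl-CoA synthetase of nascent lipid droplets, went otherwise, with its highest value of 82.8 CPM in knockout replicate 1 against 48.5 and 56.7 CPM in replicates 2 and 3 and 51.9 to 69.5 CPM in the controls. Agpat2, which makes phosphatidic acid, and Soat2, which esterifies cholesterol, overlapped between the genotypes, with log2 fold changes of 0.13 and 0.12.

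The lipid droplet group of 5 had 1 gene lower (11.7% of all genes) and 1 higher (10.0%) without overlap. Plin2, the main coat protein of cytosolic droplets (ENSMUSG00000028494.12, chromosome 4, 86648386 to 86670060), had 41.0, 42.8 and 40.2 CPM in the controls and 33.4, 31.7 and 34.96 CPM in the knockouts. The 3 knockouts lay close together and below all controls, knockout replicate 1 included. Its log2 fold change was −0.31 (SE 0.10, edgeR adjusted p = 0.202), and −0.31 (adjusted p = 0.0697) without knockout replicate 1, so it did not pass in either set. Plin3, an exchangeable coat protein, had 340, 291 and 300 CPM in the controls and 358, 400 and 347 CPM in the knockouts. The knockouts all lay above the controls by a small margin, with a log2 fold change of 0.25 (SE 0.12, edgeR adjusted p = 0.356). The ratio of Plin3 to Plin2 counts was 8.29, 6.79 and 7.47 in the controls and 10.7, 12.6 and 9.94 in the knockouts. Because Plin3 lay higher and Plin2 lower in every knockout, this ratio had to separate the genotypes and is not a further result.

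Cidec, a droplet fusion protein, was highest in knockout replicate 1 (124.5 CPM), while replicates 2 and 3 (66.6 and 81.9 CPM) lay around the controls (74.2 to 78.2 CPM). Both lipases overlapped between the genotypes. Pnpla2, which encodes adipose triglyceride lipase, stood at 111 ± 9.54 and 112 ± 3.54 CPM, and Lipe, hormone-sensitive lipase, at 89.6 ± 7.97 and 82.7 ± 7.22 CPM (SD, n = 3 each). The fold changes had 95% intervals of 0.849 to 1.19 for Pnpla2 and 0.765 to 1.11 for Lipe.

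Genes of apolipoproteins and particle assembly included the most abundant transcripts of the 33. Apob, the structural protein of the chylomicron (ENSMUSG00000020609.14, chromosome 12, 7977648 to 8016835), had 14111, 12717 and 11065 CPM in the controls and 13619, 11247 and 13210 CPM in the knockouts. The genotypes overlapped throughout, with a log2 fold change of 0.01 (95% interval −0.45 to 0.47, edgeR adjusted p = 0.989). Mttp, the triglyceride transfer subunit, had 4143, 2822 and 3073 CPM in the controls and 3401, 5836 and 5038 CPM in the knockouts. Replicates 2 and 3 of the knockouts lay above all controls, and the log2 fold change was 0.51 (SE 0.26, edgeR adjusted p = 0.372), or 0.70 (adjusted p = 0.0521) without knockout replicate 1. Counts of Mttp per Apob count were 0.294, 0.222 and 0.278 in the controls and 0.2497, 0.519 and 0.381 in the knockouts, again high in replicates 2 and 3 alone. P4hb, which encodes the partner subunit protein disulfide isomerase and was named after its values were seen, was at 2287 ± 241 and 3072 ± 866 CPM (SD, n = 3 each). Its counts per Mttp count overlapped, at 0.693 ± 0.0665 and 0.643 ± 0.0155 (SD, n = 3 each).

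Apoa1, Apoc3 and Apoa4 lie within 14880 bases of chromosome 9 (46228580 to 46243459). Apoa1, the main protein of HDL, had 5822, 5182 and 4376 CPM in the controls and 5854, 7991 and 6472 CPM in the knockouts. The lowest knockout lay just above the highest control, and the log2 fold change was 0.40 (SE 0.20, edgeR adjusted p = 0.369). Apoa4, a chylomicron protein induced by fat feeding, had 8958, 6490 and 5177 CPM in the controls and 10643, 5893 and 7904 CPM in the knockouts, and Apoc3, an inhibitor of lipoprotein lipase, 309, 296 and 194 CPM and 338, 195 and 265 CPM. Both overlapped, with log2 fold changes of 0.24 and 0.00. The value of Apoa4 was 0.0040 without knockout replicate 1, 0.07 without control replicate 3, and 0.50 and 0.44 without control replicate 1 and knockout replicate 2. In both genes knockout replicate 1 was the highest of the 6 libraries and replicate 2 the lowest of the knockouts. Apoa4 to Apoc3 counts stood at 29.0, 21.9 and 26.7 in the controls and 31.5, 30.2 and 29.8 in the knockouts, while Apoa1 to Apoc3 overlapped, with 40.9 in knockout replicate 2 as the highest value. Among the knockouts Apoa1 was highest in replicate 2 and lowest in replicate 1, the reverse of Apoa4 and Apoc3. In the controls all 3 genes fell from replicate 1 to replicate 3.

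Apoc2, the activator of lipoprotein lipase, was near the limit of detection, with 13, 4 and 4 counts in the controls and 13, 11 and 14 in the knockouts. It passed the filter on low counts, and its fold change carries little weight at this depth (95% interval of the fold, 0.783 to 4.45). Tm6sf2, which aids lipidation of the particle, was at 267 ± 18.0 and 313 ± 60.7 CPM (SD, n = 3 each) and was called without knockout replicate 1 (log2 fold change 0.38, edgeR adjusted p = 0.0452) but not with it (0.23, adjusted p = 0.502). Cideb, which fuses lipid onto the particle, and Pla2g12b, which takes part in lipoprotein assembly, varied little. They had log2 fold changes of −0.05 (SE 0.09) and −0.11 (SE 0.09).

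The export genes had log2 fold changes of 0.45 and 0.26. Surf4, the cargo receptor that loads lipoproteins into COPII carriers (ENSMUSG00000014867.9, chromosome 2, 26920040 to 26933928), had 588, 501 and 487 CPM in the controls and 576, 844 and 730 CPM in the knockouts. Knockout replicate 1 fell among the controls and the other two were above them. Surf4 had an SE of 0.17 and an edgeR adjusted p of 0.266, and without knockout replicate 1 it was at 0.58 (adjusted p = 0.0254). Sar1b, the COPII GTPase that is mutated in chylomicron retention disease, had 178, 117 and 132 CPM in the controls and 129, 198 and 182 CPM in the knockouts, and overlapped (edgeR adjusted p = 0.572). Creb3l3, a membrane-bound transcription factor of lipid genes, had 419, 356.5 and 358 CPM in the controls and 456, 374 and 331 CPM in the knockouts. It overlapped as well, with a log2 fold change of 0.03 (SE 0.15, edgeR adjusted p = 0.928).

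Per kilobase of exon, the scale on which genes can be compared, the order at the top was the same in both genotypes. Apoa1 had 4148 ± 586 CPM per kilobase in the controls and Fabp2 4146 ± 184, which differ by less than their spread, and Apoa4 followed at 3788 ± 1058 (SD, n = 3 each). Fabp1 was at 2764 ± 288, Apob at 906 ± 109 and Mttp at 539 ± 113 CPM per kilobase. In the knockouts the same genes stood at 5479 ± 890 (Apoa1), 4879 ± 2001 (Fabp2), 4488 ± 1314 (Apoa4), 1929 ± 306 (Fabp1), 911 ± 91.0 (Apob) and 767 ± 200 (Mttp). At the low end were Abca1, Scarb1 and Apoc2, at 4.47 ± 1.48, 0.426 ± 0.247 and 0.371 ± 0.288 CPM per kilobase in the controls. The levels of the last 2 differ by less than their spread, and Scarb1 reached 2.87 ± 2.00 in the knockouts.

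**Figure D5:**
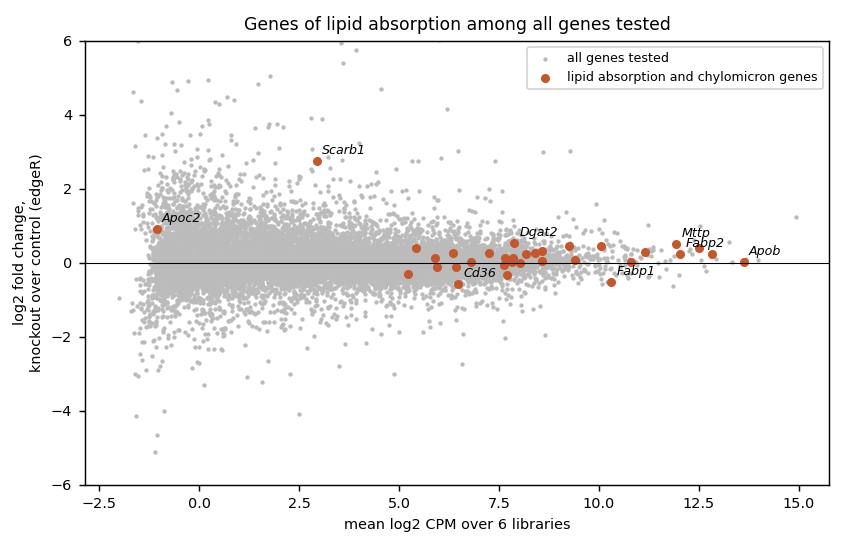
Log2 fold change of knockout over control (y axis, edgeR) against mean log2 CPM (x axis) for all 15068 genes tested (grey, 3 of them outside the plotted range) and the 33 genes of fat absorption (orange). The latter lie at high expression and close to 0, apart from Scarb1 at 2.75 and the weakly expressed Apoc2.

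Genes that act beside the 33 were taken from lists of related steps, and edgeR called 0 members of any of them with all 6 libraries. Shares of all genes for the counts below are 9.32% higher and 7.09% lower at an unadjusted p below 0.05, 10.0% higher and 11.7% lower without overlap, and 10.0% higher and 7.44% lower for edgeR calls without knockout replicate 1. Of 26 genes of fatty acid oxidation and PPAR-alpha targets, 0 were higher and 6 lower (7.09% of all genes) at an unadjusted p below 0.05, and 7 were lower without overlap (11.7% of all genes). Without knockout replicate 1, edgeR called 4 higher and 4 lower. Eci1, an enoyl-CoA isomerase of mitochondrial oxidation, had 25.4, 35.1 and 32.2 CPM in the controls and 15.9, 15.9 and 18.1 CPM in the knockouts (log2 fold change −0.89, SE 0.15, edgeR adjusted p = 0.0988, DESeq2 adjusted p = 0.000132). Ppara, the fatty acid sensing receptor, had 26.5, 25.3 and 26.7 CPM and 15.4, 17.5 and 19.0 CPM (log2 fold change −0.60, SE 0.12, edgeR adjusted p = 0.118, DESeq2 adjusted p = 0.00342). Decr1, a dienoyl-CoA reductase of the same pathway, had a log2 fold change of −0.42 (SE 0.10, edgeR adjusted p = 0.137, DESeq2 adjusted p = 0.0143). In these 3 genes knockout replicate 1 was as low as the other two. In the list as a whole 12 of 26 were positive, and the median was −0.03 with all libraries and 0.13 without knockout replicate 1.

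Of 18 regulators of intestinal lipid genes, 0 were higher and 5 lower (7.09% of all genes) at an unadjusted p below 0.05, and 6 were lower without overlap (11.7% of all genes). Without knockout replicate 1, edgeR called 1 higher and 4 lower. Hnf4g, a nuclear receptor of enterocyte genes, had 443, 552 and 530 CPM in the controls and 372, 312 and 278 CPM in the knockouts (log2 fold change −0.66, SE 0.16, edgeR adjusted p = 0.135, DESeq2 adjusted p = 0.00449). Its paralog Hnf4a, named after its values were seen, overlapped at 871 ± 41.6 and 927 ± 64.1 CPM (SD, n = 3 each). Nr5a2, which encodes LRH-1, had 30.8, 37.25 and 45.2 CPM in the controls and 20.2, 17.9 and 22.7 CPM in the knockouts (log2 fold change −0.89, SE 0.17, edgeR adjusted p = 0.113, DESeq2 adjusted p = 0.000883). Nr1h3, which encodes the sterol sensor LXR-alpha, had a log2 fold change of −0.46 (SE 0.13, edgeR adjusted p = 0.180). All 3 were lower in each knockout than in any control.

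Of 22 further genes of acyl activation, esterification and lipolysis that were tested, 2 were higher and 1 lower at an unadjusted p, and edgeR called 5 higher and 2 lower without knockout replicate 1. Agpat4 stood at 2.29, 4.625 and 3.85 CPM in the controls and at 3.14, 14.6 and 17.0 CPM in the knockouts (log2 fold change 1.69, SE 0.59, edgeR adjusted p = 0.236, DESeq2 adjusted p = 0.0444), so replicate 1 again lay within the controls. Agpat3 had a log2 fold change of −0.30 and Gpat4 of 0.54. Of 21 COPII and transport genes, Sec16a (0.34) and Preb (0.24), which organise and start the COPII coat, were higher without overlap, the list median was 0.09, and 5 were called higher and 0 lower without knockout replicate 1. Of 12 further apolipoprotein and sterol genes, Apoe had 4.49, 5.46 and 8.33 CPM in the controls and 24.2, 7.89 and 16.1 CPM in the knockouts (log2 fold change 1.40, SE 0.42, edgeR adjusted p = 0.196, DESeq2 adjusted p = 0.0231). Abcg1, a sterol exporter, had a log2 fold change of 0.59 (edgeR adjusted p = 0.264), and without knockout replicate 1 the list had 1 call in each direction. Macrophages express Apoe, and markers of that cell type summed to more CPM in each knockout than in any control (values further on), whose part in this was not tested.

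Markers of several other cell types differed between the genotypes, and their part in these results was not tested. Of 12 macrophage and dendritic cell markers, 11 were tested and all 11 had positive fold changes, and the list summed to between 18.5 and 21.2 CPM in the controls and between 38.4 and 54.5 CPM in the knockouts. These cells also express Cd36, Plin2, Abca1 and Apoe, whose log2 fold changes were −0.57, −0.31, 0.38 and 1.40. T cell markers summed to 125 to 232 CPM and 270 to 809 CPM. The 8 endothelial markers summed to 3.17 to 4.77 CPM in the controls and to 16.8, 4.62 and 5.05 CPM in knockout replicates 1 to 3, and B and plasma cell markers to 41.3 to 138 CPM and 156 to 363 CPM. Smooth muscle and fibroblast markers summed to 6.73 to 20.6 CPM in the controls and to 79.3, 13.9 and 83.0 CPM in the knockouts. As a sum, the 14 markers of goblet, Paneth, tuft and enteroendocrine cells went the other way. They summed to 11405 to 12468 CPM in the controls and 7545 to 8609 CPM in the knockouts, with levels of −0.18, 0.22 and −0.04 against −0.63, −1.46 and −1.79. Of the 14, 12 had negative fold changes. Without overlap, 4 were lower (11.7% of all genes) and 2 higher (10.0%), so the markers did not all share that direction. Of 8 adipocyte markers, which matter because fat cells express many of the droplet genes, Lep, Cfd and Retn had 0 counts in all 6 libraries, Adipoq and Plin1 had 1 count each in all, and the list summed to 15.5 to 18.7 CPM and 16.2 to 21.5 CPM.

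Markers of position along the gut varied among libraries of one genotype. Fabp6, the bile acid binding protein of the ileum, had 52.7, 232 and 188 CPM in the controls and 84.2, 312 and 818 CPM in the knockouts, and 8 ileal genes together had levels of −0.50, 0.23 and 0.27 and of −0.77, 0.38 and 0.81. Lct, the lactase gene of the jejunum, had 3167, 2698 and 2451 CPM and 1959, 1697 and 2678 CPM. The 7 jejunal genes had levels of 0.21, −0.19 and −0.02 in the controls and −0.13, 0.00 and 0.17 in the knockouts. Control replicate 1 and knockout replicate 1 were thus the lowest in ileal genes. The 8 villus tip genes had levels of 0.75, −0.17 and 0.15 in knockout replicates 1 to 3, against −0.10 to 0.15 in the controls. Crypt and proliferation genes had levels of −0.52, 0.67 and −0.16 in the controls and −0.57, 0.44 and 0.12 in the knockouts. Loci that overlap ribosomal RNA repeats had levels of 0.86, 1.32 and 1.17 in the knockouts, against −0.21 to 0.18 in the controls. The part of these differences in the values of the fat absorption genes was not tested.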

How the data were processed

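RNA was sequenced from intestinal epithelium of 6 mice, 3 per genotype. For 54446 genes the authors deposited raw counts of reads, in whole numbers and without normalization. STAR 2.5.0a, Trim Galore, FastQC and bcl2fastq 2.17 appear in the submitters' processing notes, with the build mm10. Counter, strand setting and annotation were not given in the sources used here. By their coordinates 14 of the 33 genes overlap another gene, on the same strand for Scarb1, Acsl3 and Apoc2 and on the opposite strand for the rest. For the latter, reads of shared stretches cannot be told apart if counting ignored strand. The labels name both poly-A selection and a ribosomal RNA removal kit. All 33 genes had the coordinates of GENCODE M21, from which exon lengths (union of exons) were taken.

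Counts of all genes were fitted with edgeR 4.0.16 in R 4.3.3 (trimmed-mean scaling, filterByExpr with minimum count 10, glmQLFit in its legacy mode, two-sided quasi-likelihood F test, genotype as the sole term), with Benjamini-Hochberg adjustment over 15068 genes and a threshold of 0.05. The SE was taken as the absolute log2 fold change over the root of F. Levels are mean log2 CPM (prior count 2). Alternatives were DESeq2 1.42.0, limma-voom (limma 3.58.1), other scalings and filters, the newer glmQLFit mode, a replicate block, sex by Xist, and leaving out each library. The fit was tested on simulated data.

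Genes were named by a rule: each gene of the 33 that was called, or did not overlap at an absolute log2 fold change of at least 0.5, or had the highest CPM of its role group, and up to 3 genes of each related list with the smallest unadjusted p below 0.05. The 33 genes and the lists were chosen with earlier results of these data known. Other genes of the 33 given in full, the count ratios, the promoters and the motifs were chosen after values were seen. For ratios without overlap no share over other gene pairs was taken, and 10% of values would not overlap by chance with 3 libraries per group. As a check of pairing, deviations of libraries with 1 replicate number from their group means were correlated across genes, at 0.117, 0.119 and 0.149, against −0.143 to 0.00929 for other pairs. All 3 exceeded 0.1, though no label says what a number marks. P-values set the difference between genotypes against the spread between these mice within a genotype.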

Additional observations from a re-analysis of the deposited data

How the results depend on the processing

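No gene of the 33 was called by edgeR with 6 libraries under any scaling, filter, mode, replicate block or sex covariate, nor by limma-voom (0 higher and 0 lower each). A filter of 1 CPM in 3 libraries left 32 of the 33, without Apoc2. With the replicate block the count stayed at 0 higher and 0 lower, and it changed no call. DESeq2 called 1 higher. Without any 1 library the count ran from 0 to 6 higher and from 0 to 2 lower, and knockout replicate 1 was the sole library whose loss gave calls. Over all genes, edgeR called 8 higher and 1 lower, against 542 and 294 by DESeq2, 196 and 88 without a filter, 11 and 5 with library totals, 4 and 1 by limma-voom, 0 and 0 with the replicate block, and 0 to 1549 higher and 0 to 1151 lower when 1 library was left out. The mean level of the 33 genes, 0.18, was 0.078 as a median over genes. Relative to the epithelium and brush border genes the mean turned to −0.060, because that list was higher too. Library totals without scaling moved the median of all genes from 0.01 to −0.10.

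Genes that changed sign were mostly near 0, but Abca1 (0.38), Cidec (0.25) and Fabp2 (0.24) did so too. With library totals, log2 fold changes were −0.10 for Npc1l1, −0.12 for Abcg5, −0.031 for Dgat1, −0.11 for Pnpla2, −0.10 for Apob, −0.092 for Apoc3 and −0.064 for Creb3l3. With limma-voom they were −0.011 for Abcg5, −0.088 for Abca1 and −0.0041 for Apoc3, with the replicate block −0.0086 for Abcg5, −0.030 for Abca1 and −0.0039 for Apoc3, and with the sex covariate −0.032 for Fabp2, −0.050 for Abcg5 and −0.46 for Abca1. With each library left out in turn, values ran from −0.048 to 0.17 for Npc1l1, −0.073 to 0.51 for Fabp2, −0.10 to 0.15 for Abcg5, −0.33 to 0.88 for Abca1, −0.14 to 0.28 for Acsl3, −0.041 to 0.45 for Cidec, −0.024 to 0.071 for Pnpla2, −0.084 to 0.11 for Apob, −0.21 to 0.19 for Apoc3 and −0.10 to 0.15 for Creb3l3. Beyond the construction of each alternative, the cause was not tested. With 3 mice per genotype, an exact permutation test of a single value could not give a p below 0.1. Counts were lowest for Apoc2, and Scarb1 was low too, with 33 counts in control replicate 2.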
